A study of Mus musculus with 18 samples.

Results

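The 1000 most deeply read CpGs of the autosomes were examined in 18 libraries of mouse mammary epithelium. The rule took the CpGs of chromosomes 1 to 19 that were listed in all 18 files, 1084993 in number, summed their total reads over the files, and kept the 1000 with the highest sums. The members were thus chosen by read depth, and the coverage values below describe that choice and were not tested. Methylation levels did not enter the rule.

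The assay was mRRBS, multiplexed reduced representation bisulfite sequencing. In it genomic DNA is cut with MspI, and bisulfite then converts unmethylated cytosine, so the share of unconverted reads at a CpG is its methylation level. Cells labelled mammary epithelial stem, luminal progenitor or mature luminal were purified from C57BL/6 females that carried no stated allele or treatment. Pregnant mice were taken at day 10, day 16 and day 19, retired breeders at no stated age, and virgin mice at week 3 and week 9. Each stage gave 1 library per cell type, so each cell type had 3 pregnant, 1 retired and 2 virgin libraries. Stages served as replicates, and separate mice, shared mice or pools are not told apart in the labels, so p-values measure the spread between these libraries. Methylation calls cannot show marker expression, and the purity of the labelled cells was not checked here.

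Repeated DNA families, such as satellites at centromeres and the tandem genes of ribosomal RNA, exist in far more copies in a cell than in a genome assembly. Reads from the many copies then pile up on the few copies that were assembled, and a methylation level measured there is an average over the copies. In mammals satellite DNA is known to be heavily methylated in somatic cells, while ribosomal RNA genes are known as a mixture of methylated, silent copies and unmethylated, active ones. No annotation of mm9, the build of the files, was at hand, so the CpGs are given by position and no repeat family was assigned to any of them.

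The deepest CpG had 19333480 reads over the 18 libraries, and a median autosomal CpG had 677. The last CpG inside the limit, chr1:90174168, had 6799 reads and a mean level of 0.475%. The first one outside, chr1:172993917, had 6794 reads and a mean level of 25.7%. Another 23 CpGs were as deep but fell outside the rule, 22 of them on X and 1 autosomal CpG missing from a file. The members made up 0.0922% of the autosomal CpGs in all files and took 7.34% of all 980754896 reads. Library totals ran from 17513287 reads in retired mature to 117922522 in week 9 virgin mature, with the day 16 and retired libraries among the shallow ones. Of the members, 988 had at least 5 reads in every library and could be tested.

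Members closer than 1000 bp were joined into loci, which gave 273 loci, of which 141 held 1 CpG. Chromosome 17 held 289 members, chromosome 6 held 166 and chromosome 11 held 73. The 5 loci with the most reads carried 80.7% of the members' reads in 299 CpGs. On mm9 they were chr2:98506419-98506660 with 3 CpGs, chr17:39979959-39985654 with 260, chr11:108873012-108873184 with 10, chr5:147072588-147072870 with 11 and chr17:36368220-36368427 with 15.

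Not every deep CpG lay at an unnamed locus. RefSeq holds 32851 mouse promoter windows, from 250 bases before to 50 after a gene start, on build GRCm38.p6. The distances between listed CpGs were matched to the CG dinucleotides of windows on the same chromosome, with at least 10 listed CpGs and none off a CG. This matched 3 windows, and each pattern of distances was found in 1 window of the table. Of these, 2 are shown because they tie members to genes and show how close the members sit to MspI sites, CCGG. Each is written 5′ to 3′ on the strand of its gene, and capitals mark the CGs that are members.
Lyst promoter: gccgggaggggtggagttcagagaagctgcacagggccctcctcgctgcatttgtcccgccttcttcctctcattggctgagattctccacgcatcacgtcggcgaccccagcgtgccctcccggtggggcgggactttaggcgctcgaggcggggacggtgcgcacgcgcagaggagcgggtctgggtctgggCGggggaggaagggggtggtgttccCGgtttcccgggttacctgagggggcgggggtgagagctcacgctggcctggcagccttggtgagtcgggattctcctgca
Hjurp promoter: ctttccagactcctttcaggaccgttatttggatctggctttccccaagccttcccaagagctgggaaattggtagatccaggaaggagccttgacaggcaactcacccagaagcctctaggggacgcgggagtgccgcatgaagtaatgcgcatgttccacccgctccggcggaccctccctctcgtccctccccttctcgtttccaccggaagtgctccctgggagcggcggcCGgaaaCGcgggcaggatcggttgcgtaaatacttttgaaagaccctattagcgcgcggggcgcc
Lyst encodes a regulator of lysosome traffic, and its 14 listed CpGs spanned chr13:13682428-13682711 of mm9 on the plus strand. Hjurp encodes the chaperone of the centromeric histone CENP-A, and its 10 listed CpGs spanned chr1:90174144-90174235 on the minus strand. In each of the 2 windows 1 member lay within a CCGG, and the other lay at most 25 bases from one. Of all promoter windows in the table, 52.8% hold CCGG. The 2 Lyst members had 56324 and 57497 reads and averaged 10.5%, between 5.57% and 17.3% in the libraries. The 2 Hjurp members, one of them the last CpG inside the limit, averaged 0.419%, between 0 and 3.39%. The members in both windows were thus weakly methylated, and levels of the other listed CpGs there are not given. Whether reads at these members came from other copies was not tested.

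The members were mostly weakly methylated. Mean levels over the libraries were under 20% at 599 members, between 20 and 80% at 151 and over 80% at 250. Of 678767 autosomal CpGs with at least 5 reads in every library, 41.3% were under 20%, 16.2% between 20 and 80% and 42.4% over 80%. The chromosome 17 locus, with 247 of its 260 CpGs under 20%, gave much of that tilt. Without it and the chromosome 2 locus, 47.8% of the other 737 members were under 20% and 33.5% over 80%. Levels also varied less between libraries: the median SD over the 18 libraries was 2.92 points for the members and 4.49 points for those autosomal CpGs. Their greater depth moves with this smaller spread, and its part was not tested.

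Coverage of the members differed between stages. They took 9.36%, 8.84% and 9.97% of the reads in the day 16 stem, progenitor and mature libraries, 5.79%, 5.27% and 4.99% in the day 19 ones, and 8.93%, 9.32% and 9.17% in the retired ones. The other 9 libraries lay between 6.07% and 8.42%. By this share the day 19 libraries were thus the lowest and the day 16 and retired libraries the highest, in every cell type. The 3 CpGs of the chromosome 2 locus gave this order. They took 6.61%, 5.47% and 7.35% of the reads at day 16, and 1.37%, 1.29% and 0.815% at day 19. In retired mice they took 5.85%, 6.36% and 6.09%.

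The chromosome 2 locus showed the same order. Its 3 CpGs were read 29486, 23464 and 31512 times as often as the library's median autosomal CpG in day 16 stem, progenitor and mature cells. The same ratio was 1842, 1680 and 1104 at day 19 and 25463, 29207 and 27872 in retired mice. The other libraries lay between 6126 in week 9 virgin mature and 22258 in day 10 stem. Relative coverage at day 16 was thus more than 10 times that at day 19, in each cell type. The chromosome 17 locus ran the other way at day 19. It was at 127, 112 and 114 times the median CpG in day 19 stem, progenitor and mature cells, and 63.7 to 108 elsewhere. The rest of the order was not reversed in full. Week 9 virgin progenitor, at 84.6, lay below day 16 progenitor, at 95.9, and the retired libraries, at 88.0 to 91.7. Members outside both loci took 1.29 to 2.01% of the reads.

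**Figure D1:**
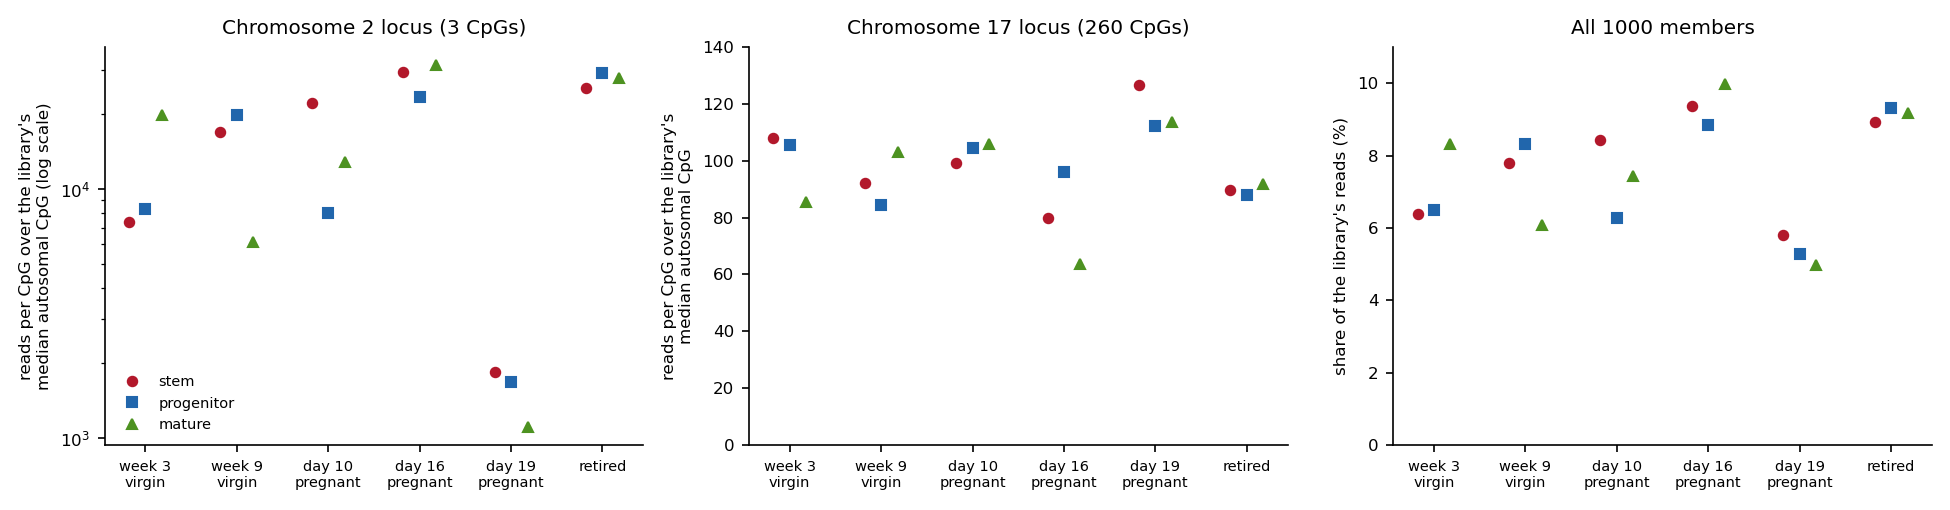
Coverage of the members in each of the 18 libraries, by stage (x axis) and cell type (symbols), with 1 point per library. Left and middle, reads per CpG at the chromosome 2 and chromosome 17 loci over the library's median autosomal CpG, the left on a log axis; right, the members' share of the library's reads in percent. The day 19 libraries are lowest on the left, at 1104 to 1842, and highest in the middle, at 112 to 127.

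Of all autosomal CpGs, 0.446% were read in the day 19 libraries at under 0.1 of their relative coverage elsewhere. Among the members this held for 46 at 29 loci, or 4.6%. The rule used the same reads, so the count is a description. Their median relative coverage was 0.962, 0.875 and 1.04 in day 19 stem, progenitor and mature cells, and 10.0 to 41.3 in the other 15 libraries. Of the 46, 29 were over 80% methylated on average, 11 between 20 and 80% and 6 under 20%. Levels of these members in the day 19 libraries rest on few reads.

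Methylation of the chromosome 2 locus hardly moved despite that coverage. Its level was between 94.3% in day 19 progenitor and 96.0% in week 3 virgin mature, with an SD of 0.49 points over the 18 libraries. Single CpGs averaged 97.1%, 92.7% and 96.3% in the order of their positions. The day 19 libraries, with the lowest coverage, had 94.9%, 94.3% and 94.8% in stem, progenitor and mature cells, against 95.6%, 95.6% and 95.7% at day 16. They were the lowest libraries beside week 3 virgin stem, at 94.3%. Levels thus moved little where coverage differed most, and were slightly lower where it was lowest.

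The chromosome 17 locus averaged 12.0% with an SD of 2.95 points over the libraries. Its level was 13.5%, 11.2% and 13.3% in day 10, 16 and 19 pregnant stem cells, against 9.80% and 8.43% in week 3 and 9 virgin stem cells. In progenitor cells it was 9.21%, 15.1% and 6.95% in the same order in pregnancy, against 10.3% and 11.9% in virgin mice. In mature cells it was 16.4%, 16.1% and 10.2% in pregnancy, against 10.3% and 9.79% in virgin mice. Retired stem, progenitor and mature cells had 12.6%, 17.3% and 14.0%. The stem libraries of pregnant and virgin mice did not overlap, while those of progenitor and mature cells did. The lowest library of all, day 19 progenitor, and the highest, retired progenitor, were of the same cell type. By cell type the level was 11.5 ± 2.06% in stem, 11.8 ± 3.83% in progenitor and 12.8 ± 3.09% in mature cells (SD, n = 6 libraries each), so cell types differed by less than the spread between stages.

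Day 19 progenitor was the lowest library along most of the locus. Mean levels ran between 9.87% and 14.1% in bins of 500 bp, and between 2.83% and 31.8% at single CpGs. Of the 260 CpGs, 212 were lowest in day 19 progenitor and 104 were highest in retired progenitor. The CpGs share reads and molecules, so they are no independent replicates of that order. The most methylated one was chr17:39982926.

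**Figure D2:**
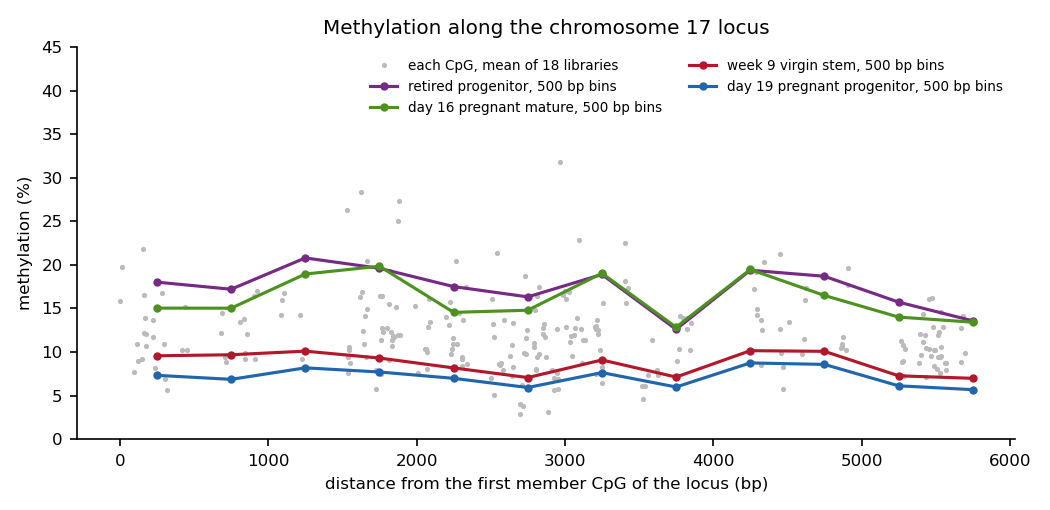
Methylation along the chromosome 17 locus, in percent, against distance from its first member CpG in bp. Grey points are the means of single CpGs over 18 libraries, and lines are the means of 500 bp bins in 4 libraries. The retired progenitor line lies above the day 19 progenitor line in each bin.

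Other deep loci with low levels were mostly lowest in the same library. The chromosome 11 locus averaged 15.0%, from 8.17% in day 19 progenitor to 22.0% in day 16 mature. The chromosome 5 locus averaged 13.7%, from 7.70% in day 19 progenitor to 19.95% in retired progenitor. The second chromosome 17 locus averaged 7.66%, from 3.73% in day 19 progenitor to 11.8% in day 10 mature. Outside the array on chromosome 6 described below, 30 loci of at least 4 members had a mean level under 20%. Day 19 progenitor was the lowest library at 26 of them. Retired progenitor was the highest at 13, day 10 mature at 5 and day 16 mature at 5. Some of the 30 loci repeat the CpG spacing of others, as given below, so they may not be independent.

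Autosomal CpGs of 5 to 20% in general did not have their lowest level in this library. Their mean level was 13.9% in day 19 progenitor, within a range over libraries of 9.05 to 15.2%, so this library was among the higher ones there. Over the members under 20% the mean level was 6.08% in day 19 progenitor and 13.3% in retired progenitor. Over the members above 80% it was lowest in the same library, at 91.0%, and highest in retired progenitor, at 94.0%. Autosomal CpGs over 80% in general were close to this, at 91.0% in day 19 progenitor and 93.1% in retired progenitor within a range of 90.9 to 93.3%.

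**Figure D3:**
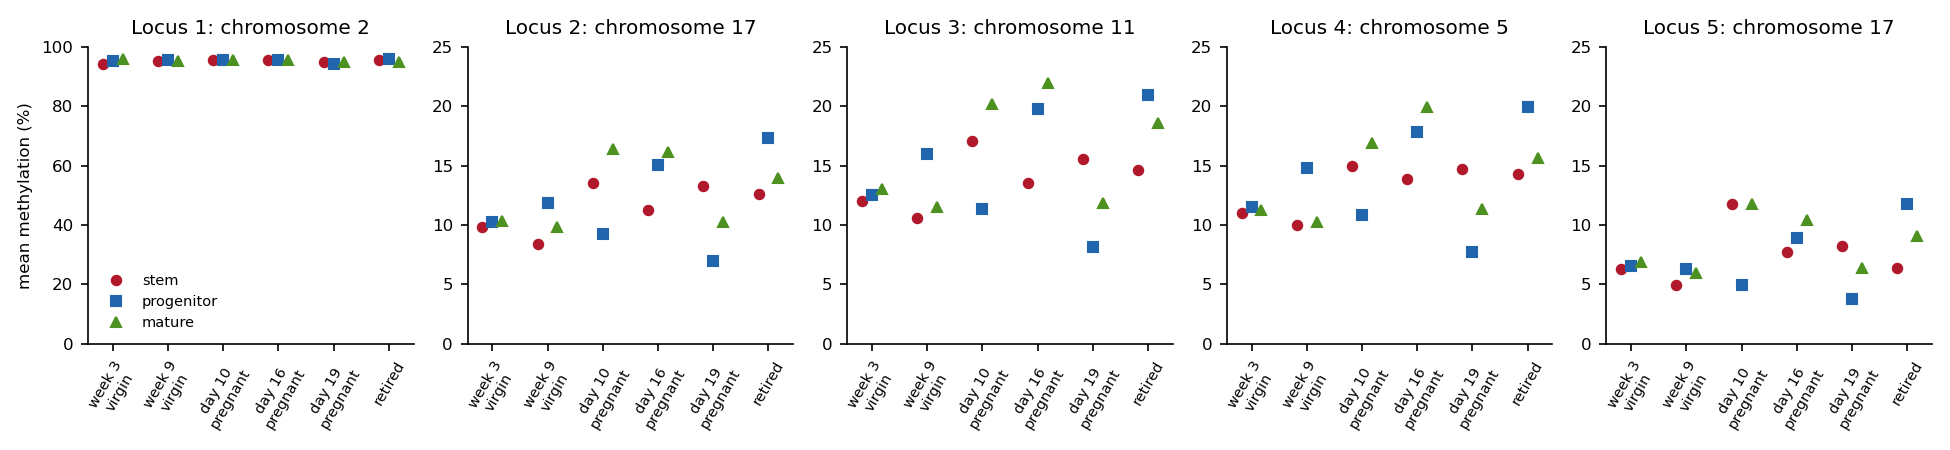
Mean methylation in percent of the 5 loci with the most reads, by stage (x axis) and cell type (symbols), with 1 point per library. The y axis runs to 100% for the chromosome 2 locus and to 25% for the others. The chromosome 2 locus stays between 94.3% and 96.0%, and the other 4 are lowest in day 19 progenitor.

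Some loci repeated the CpG spacing of others. All 14 members at chr6:3150878-3151442 fell on CpGs at the same distances within the chromosome 17 locus, chr17:39983734-39984298. Levels there were 14.6% and 14.2%, and no CpG pair differed by more than 1.20 points in its mean. All 6 members at chr1:56838958-56839212 matched chr17:39984577-39984831 in inverted order, with levels of 13.1% and 12.8%. The 6 members at chr10:104675387-104675496 matched those at chr14:105115072-105115181 in inverted order, with levels of 18.6% and 18.4%. Levels thus lay within 1 point in these 3 pairs. The chromosome 10 and 14 members also matched the spacing of 6 CpGs at chr12:100883671-100883780, which together had 37210 reads and averaged 57.2%. The 6 members at chr15:86025232-86025656, at 11.5%, matched 6 CpGs at chr12:100883356-100883780, which had 77010 reads and averaged 49.5%. Some of these chromosome 12 CpGs were too shallow to be members, and the 18 members of the locus there averaged 14.4%. Whether reads of 1 copy were placed on another was not tested.

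A tandem array lay between chr6:47601734 and chr6:47728136, where 124 members formed 18 loci. Of these loci, 11 were units of exactly 8 members with nearly equal spacing, and 8 of their steps were 4308 to 4357 bp long. Median relative coverage was 11.1 times the median CpG. Along the 8 CpGs of a unit the mean levels were 21.8%, 4.52%, 4.30%, 1.89%, 4.83%, 2.40%, 21.2% and 72.8%. Levels of the last CpG were between 72.2% and 73.6% across the 11 units, so the units were alike in their means over libraries.

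The last CpG of these units separated pregnant from virgin stem cells. Averaged over the 11 units it was at 66.6%, 59.3% and 62.8% in day 10, 16 and 19 pregnant stem cells, against 77.9% and 80.5% in week 3 and 9 virgin stem cells. Retired stem cells had 68.5%. The pregnant libraries lay below both virgin ones at this CpG in 11 of 11 units, with differences of -22.8 to -14.0 points and a mean of -16.3. Background was 5.66% of the 711980 tested CpGs with such a separation and a level at least 10 points lower. Among the members this held for 25 of 988, or 2.53%, and the 11 units are among these 25. The members as a whole thus lay below the background. The first and the seventh CpG of the unit had mean differences of -5.75 and -5.91 points, and the 5 between them -0.32 to -1.52.

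No unit passed the test at this CpG. Quasi-binomial regression gave p of 0.00124 to 0.0311 in the 11 units and adjusted p of 0.446 to 0.605, and limma adjusted p of 0.273 to 0.592. The units are read in the same libraries and are no replicates, and the CpG was singled out after its values were seen. Pregnant minus virgin differences at it were -1.11 points in progenitor cells and -0.33 in mature cells. The pregnant progenitor libraries had 75.5%, 72.5% and 75.7%, against 76.6% and 74.8% in virgin progenitor. The pregnant mature libraries had 67.6%, 74.5% and 78.1%, against 78.7% and 68.8% in virgin mature. Whether the difference in stem cells differs from those was not tested.

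**Figure D4:**
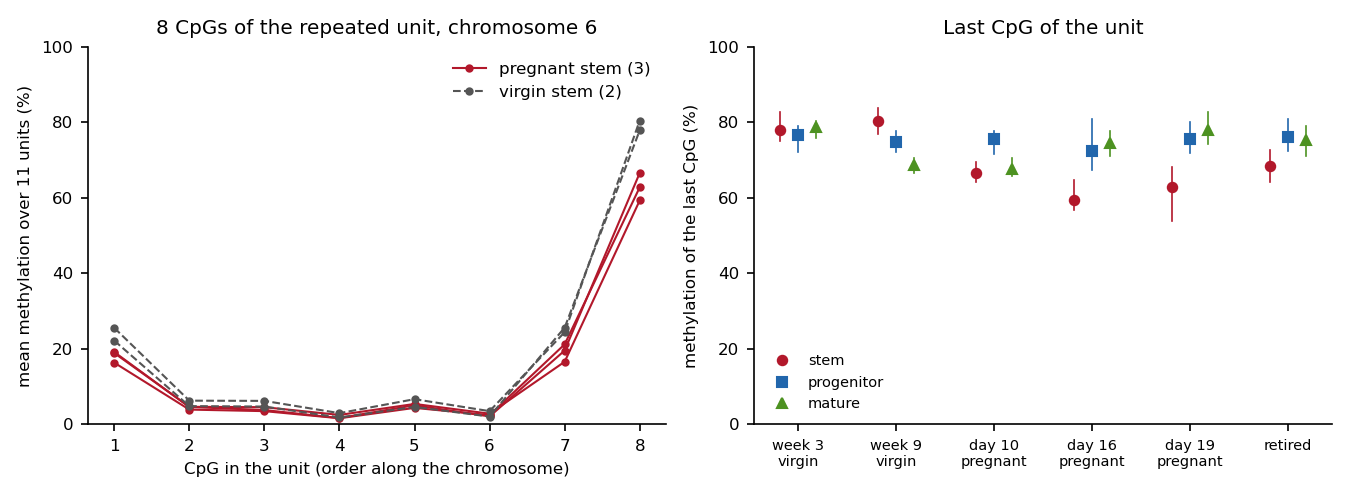
Methylation in percent at the repeated unit on chromosome 6. Left, means over 11 units at the 8 CpGs of the unit in order, in 3 pregnant stem and 2 virgin stem libraries; right, the last CpG in each library by stage, as the mean and, as a line, the range over units. The 3 pregnant stem libraries, at 59.3 to 66.6%, lie below the 2 virgin ones, at 77.9 and 80.5%.

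The members with the widest spread between libraries followed stage and not cell type. The 3 widest, each from a separate locus, were chr2:82960107, chr12:37342935 and chr17:81753440, with SDs of 38.7, 37.9 and 37.2 points. At chr2:82960107 the level was 5.33%, 8.51% and 6.25% in day 16 stem, progenitor and mature cells, and 96.4%, 96.0% and 95.8% at day 19. It was 2.84%, 6.25% and 0% in the retired libraries and 58.2 to 87.4% in the other 9. Libraries from stages 3 days of pregnancy apart thus lay near opposite ends. At chr12:37342935 it was 1.07%, 2.07% and 1.59% at day 16 over 692 to 1061 reads, and 96.9%, 97.3% and 97.3% at day 19 over 1321 to 2970 reads. At chr17:81753440 it was 8.49%, 3.90% and 22.9% at day 16, and 98.0%, 94.6% and 96.0% at day 19.

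In all, 16 members had an SD over 15 points. At 10 of them, on 7 chromosomes, every day 19 library was above and every day 16 and retired library below all week 3, week 9 and day 10 libraries. Some of the 10 had neighbours at equal distances, at 24 and 33 bp for chr7:80072789 and chr15:62525107. For chr2:24023528 and chr17:37772528 the distances were 3 and 21 bp. Whether such CpGs are copies of 1 sequence was not tested, so the 10 cannot be taken as independent sites. The same order and spread were found at 52 of the 711980 tested CpGs, or 0.0073%. Their mean over the 10 CpGs was 11.2%, 8.30% and 18.2% in day 16 stem, progenitor and mature cells, 97.0%, 96.4% and 96.8% at day 19, and 7.95%, 10.9% and 12.3% in retired mice. At 5 other members the day 19 libraries stood apart from the other 15, and at 4 of these day 19 was read at under 0.1 of the relative coverage elsewhere.

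A neighbouring CpG did not share this swing. Each of the 10 had another member 3 to 24 bp away, read on the same strand where strand is given. Those neighbours had mean levels of 75.4 to 96.8% and SDs of 0.61 to 3.36 points. The 10 CpGs had SDs of 23.2 to 38.7 points. Some of the 10 also had listed neighbours that were not members, and these varied more, with SDs of 3.25 to 14.5 points. Relative coverage of the chromosome 2 locus is given beside the level of the 10 CpGs. Among the virgin and day 10 libraries, week 3 mature and week 9 stem had relative coverage of 19792 and 16908 and levels of 55.6% and 57.9%. Week 3 stem and week 3 progenitor had 7368 and 8327 and levels of 86.0% and 84.8%. Week 9 progenitor had 19775 and 69.2%, week 9 mature 6126 and 80.01%, and day 10 stem 22258 and 75.3%. Day 10 progenitor had 7999 and 84.3%, and day 10 mature 12807 and 77.0%. The levels did not strictly follow the coverage among these libraries. The day 16 and retired libraries had relative coverage of 23464 to 31512 and levels of 7.95 to 18.2%. The day 19 libraries had 1104 to 1842 and 96.4 to 97.0%. File format differed too, as the day 19, the retired and the day 16 progenitor files had 6 columns and the other 11 had 4. The part of library make-up in these levels was not tested, and stage cannot be told apart from anything else that differed between the libraries of a stage.

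**Figure D5:**
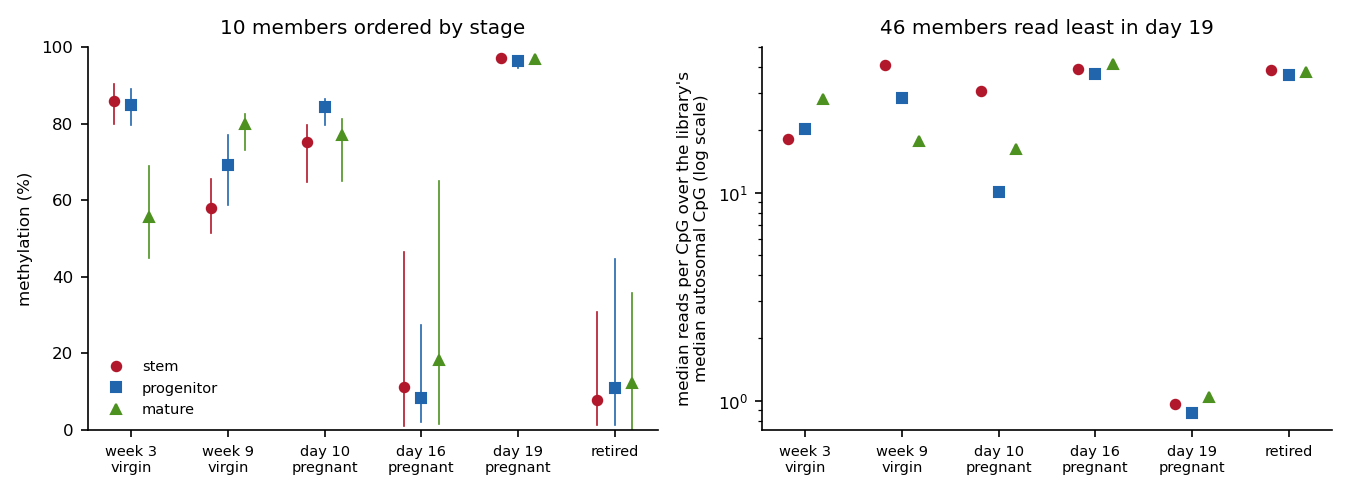
Members by stage (x axis) and cell type (symbols). Left, methylation in percent of the 10 CpGs ordered by stage, as the mean and, as a line, the range over the 10; right, median relative coverage, on a log axis, of the 46 members that day 19 libraries read least. Day 19 libraries are at 96.4 to 97.0% on the left and at 0.875 to 1.04 on the right.

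The 3 members with the smallest SD were unmethylated, where the floor of the scale holds the SD near 0. Each from a separate locus, they were chr17:36368265, chr11:75401733 and chr12:4600075, with SDs of 0.011, 0.012 and 0.019 points. They had 4, 6 and 1 methylated reads among 61131, 78883 and 39762. Their level was at most 0.0816% in any library.

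Tests at single CpGs asked whether members differed between cell types. The call asked for p below 0.05 after adjustment over all 711980 CpGs, together with mean levels at least 10 points apart. Stem against progenitor cells called 0 of 988 members by quasi-binomial regression, with 0% called among all CpGs, and 0 by limma. At an unadjusted p under 0.05 were 47 members, or 4.76%, against 5.95% of all CpGs. Stem against mature cells called 0 members by regression, with 0% of all CpGs, and 0 by limma, with 40 members, or 4.05%, at an unadjusted p under 0.05, against 6.78% of all. Progenitor against mature cells called 0 by regression, with 0% of all, and 0 by limma. At an unadjusted p under 0.05 were 68 members, or 6.88%, against 4.66% of all, and 58 of the 68, or 5.87% of the members, were lower in progenitor cells, against 2.26% of all. Median absolute differences were 0.891, 1.07 and 0.916 points over the members in the 3 comparisons, against 1.47, 1.39 and 1.35 points over all tested CpGs.

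The members with the lowest p were highly methylated and differed by a few points. At chr11:3093476 stem cells had 95.5 ± 1.65% and progenitor cells 93.4 ± 1.32% (SD, n = 6 each, regression adjusted p = 0.758). At chr5:15194352 stem cells had 94.9 ± 1.19% and mature cells 91.8 ± 1.15% (regression adjusted p = 0.585), and no library of 1 overlapped the other. It was the 1 member of 988 separated and higher in stem cells, or 0.101%, near the background of 0.0834% of all tested CpGs. At chr1:115647178 progenitor cells had 89.3 ± 2.43% and mature cells 93.4 ± 1.93% (regression adjusted p = 0.995).

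Pregnancy was compared with the virgin state within each cell type and over them. In stem cells regression called 0 members, with 0% of all CpGs, and limma 0 members and 3 CpGs in all, or 0.000421%. At an unadjusted p under 0.05 were 136 members, or 13.8%, against 7.55% of all CpGs. In mature cells regression called 0 members, with 0% of all, and limma 0, and 163 members, or 16.5%, had an unadjusted p under 0.05, against 3.94% of all. In progenitor cells regression called 0, with 0% of all, and limma 0, and 19 members, or 1.92%, had such a p, against 2.82% of all. Over the cell types regression called 0, with 0% of all, and limma 0, and 90 members, or 9.11%, had such a p, against 5.03% of all. A fit without the day 19 libraries was chosen after seeing the data, and leaves day 10 and 16 against week 3 and 9. The shares of members were then 18.8% in stem, 47.5% in mature and 1.82% in progenitor cells and 35.5% over the cell types. All CpGs had 6.49%, 3.19%, 2.33% and 5.02%, with 0 members called. In mature cells day 19 was the pregnant stage nearest the virgin level at the chromosome 17 locus, at 10.2% against 16.4% and 16.1%. These shares are thus no separate result. The 9 pregnant libraries come from 3 stages and the 6 virgin ones from 2, and the fit over cell types has no term for stage. A count of 0 does not show that levels did not differ. Members of 1 locus share reads, so these shares are not counts of independent sites.

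Most members whose libraries separated were weakly methylated and slightly higher in pregnant mice in stem and mature cells. In stem cells 361 members were higher in all 3 pregnant than in both virgin libraries, or 36.5%, where the background was 6.61% of all tested CpGs. Of the 361, 186 lay in the chromosome 17 locus and 312 were under 20%, they came from 54 loci, and their median difference was 3.63 points. Another 108 members, or 10.9%, were separated and lower, where the background was 9.58%, and none of them lay in that locus. In mature cells 174 members were separated and higher, or 17.6%, where the background was 5.43%, with a median difference of 4.28 points, and 87 of these lay in the chromosome 17 locus. In progenitor cells 44 were separated and higher, or 4.45%, where the background was 6.60%. The median pregnant minus virgin difference over tested members was 1.78 points in stem, 2.06 in mature and -0.326 in progenitor cells, and 0 over all CpGs in each. These comparisons of cell types were not tested against each other.

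Under the same rule for the lowest p, chr9:64478844 was named in stem cells, at 90.4 ± 1.59% in pregnant (SD, n = 3) and 94.98 ± 0.21% in virgin mice (n = 2; regression adjusted p = 0.446). In the other 2 cell types and over cell types it was chr8:113755853. In progenitor cells it was at 93.6 ± 1.02% in pregnant and 95.1 ± 0.23% in virgin mice, a difference of -1.49 points. In mature cells it was at 94.1 ± 2.04% and 94.8 ± 0.16%, a difference of -0.64 points. Over cell types it was at 93.3 ± 1.68% in 9 pregnant and 94.9 ± 0.18% in 6 virgin libraries (regression adjusted p = 0.0711). Its difference of -1.65 points over cell types is below the 10 points asked for. This CpG was among the members poorly read at day 19, with 19 to 57 reads there, against 2001 to 16739 in the other 15 libraries.

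Retired mice were compared with virgin mice over the cell types. The 3 retired libraries are the 3 cell types of 1 stage, so their spread holds no difference between stages. Regression called 0 members, with 0% of all CpGs, and 59 members, or 5.97%, had an unadjusted p under 0.05, against 4.46% of all. Without the day 19 libraries the share was 12% of the members, against 4.12% of all. The lowest p was again at chr8:113755853, at 93.5 ± 0.20% in retired (SD, n = 3) and 94.9 ± 0.18% in virgin mice (n = 6; regression adjusted p = 0.778). Limma called 25 members, or 2.53%, where it called 2.26% of all CpGs. Of these, 10 were lower in retired mice, with differences of -71.7 to -41.0 points, and were the 10 CpGs ordered by stage. That order was defined with all retired libraries below all virgin ones, so these calls are no separate result. The other 15 called members were higher, by 10.0 to 20.03 points, and 4 of them lay in the chromosome 17 locus. Separated and higher in all 3 retired libraries were 256 members, or 25.9%, where the background was 3.87%, and 122 of them lay in that locus.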

How the data were processed

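The files list, per CpG, methylated reads over total reads; the authors deposited no header. Positions are on mm9, per the submitters' processing notes, and are printed 1-based. The sources used here do not name the aligner, methylation caller, duplicate handling or treatment of reads with several placements, and the last of these decides what a level at a repeated locus means. Files with 6 columns also hold a score that the authors deposited, a rescaled level, which was used for a check alone. A level is the percent methylated from those deposited reads, and a locus level is the mean over its CpGs. Values after ± are SDs between libraries. Reads may be PCR copies, so a count of reads need not be a count of molecules.

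The 711980 CpGs with a minimum of 5 reads in each library were fitted with quasi-binomial logistic regression on methylated and unmethylated reads, with dispersion moderated by limma 3.58.1 (R 4.3.3), and tested by F test with Benjamini-Hochberg adjustment over all of them. Cell types were fitted with stage as block, pregnancy within cell types with the 9 groups, and pregnancy and retirement over cell types with state plus cell type. Named were the 5 loci with the most reads, the CpGs at the limit, the member with the lowest p where none was called, and the 3 members with the largest and the smallest SD, at most 1 per locus. Members, lists and tests were chosen with earlier results of these data known. The array, the spacing matches and the stage order were found in these values. Promoter sequences are from RefSeq (GRCm38.p6); its coordinates were not used, and 1 matched window is not reported here. The test was tried on simulated data. Alternatives are given in the closing section.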

Additional observations from a re-analysis of the deposited data

Results flagged for a closer look

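Samples far from the others of their group, by the ratio of their gap to the group's range, were sought in 80 groups of 6 or 9 libraries, and 4 were found; chance alone gives about 1 in 20. The level of the members between 20 and 80% was 36.6% in day 16 stem, while the next of the 9 pregnant libraries was at 42.9%. The level of the chromosome 2 locus was 94.3% in day 19 progenitor, while the next of the 6 progenitor libraries was at 95.2%. Relative coverage of the chromosome 11 locus was 204 in day 16 stem, while the next of the 6 stem libraries was at 172.0. The level of the chromosome 5 locus was 14.8% in week 9 virgin progenitor, while the next of the 6 virgin libraries was at 11.5%.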

How the results depend on the processing

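Over 210 alternatives of the 8 counts of called members, 209 gave 0. They were a minimum of 10 reads, a difference of 20 points, a prior without trend, the 11 libraries in 4-column files, no stage block, members ranked by depth-scaled reads, leaving out each library (0 to 0), and limma. A fit of CpGs of 5 to 95% and a fit without day 19 were chosen after seeing the data. A library left alone in its group took its spread from the others. Limma on log2((methylated + 1)/(unmethylated + 1)) called 25 members in retired against virgin mice. The fit of CpGs of 5 to 95% tested 356005 CpGs, of which 782 were members. In pregnant against virgin stem cells 2372 were called, none of them a member. The lowest regression adjusted p of a member there was 0.0502. Without day 19, 47.5% of members had an unadjusted p under 0.05 in pregnant against virgin mature cells, against 3.19% of all CpGs, and 35.5% over cell types, against 5.02%. At a minimum of 10 reads chr8:113755853 had an adjusted p of 0.0344 in pregnant against virgin mice over cell types, with a range of 0.0344 to 1 over its alternatives. Stage was the block that paired the cell types, and without it 0 members were called. Comparisons with retired mice could not be fitted on 4-column files.

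The mean level of the members, 35.5% as the mean of 18 libraries, was 19.7% for the 500 deepest CpGs, 45.8% for the 2000 deepest and 59.1% with reads pooled. It was 35.1% with members by depth-scaled reads and 35.3% without the chromosome 2 locus. Their share of reads was 7.12 to 8.08% under its 3 alternatives, against 7.62%. The stem cell difference at the last CpG of the chromosome 6 units was -18.1 to -14.5 points without each library and -16.2 with reads pooled.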
